A study of Rattus norvegicus with 12 samples.

Results

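The genes described here are those of the MHC class II route of antigen presentation, with the regulator that switches them on and with the light chain of MHC class I. They are 9 rat genes (RT1-Ba, RT1-Bb, RT1-Da, RT1-Db1, RT1-DMa, RT1-DMb, Cd74, Ciita and B2m), chosen by name and found on the array through the RefSeq accession that each probe carries. They had 10 of the 45598 probes of the array, with 2 probes for Ciita and 1 for each of the others. Liver RNA was measured in 6 adult male Wistar rats fed for 4 weeks a low protein diet with 5% casein, and in 6 fed a control diet of equal energy content with 14% casein. Each rat had its own single-colour Agilent array, labelled with Cy3. The study set the diets against each other to follow the liver's answer to protein undernutrition, and its metabolite measurements were not analysed here. The RNA is that of whole liver, so in every value below fewer cells of a type and less RNA per cell cannot be told apart.

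MHC class II molecules carry peptides from material that a cell has taken up and show them to CD4 T cells. Each is a pair of an alpha and a beta chain, made in the endoplasmic reticulum around the invariant chain Cd74, which fills the groove and steers the complex to endosomes. There Cd74 is cut to a short fragment, and the DM pair exchanges that fragment for a peptide. Ciita, the class II transactivator, is recruited by the factors bound at the promoters of these genes and sets how strongly they are transcribed. In liver, class II is known from Kupffer cells, dendritic cells and B cells far more than from hepatocytes. B2m pairs with class I heavy chains, not with class II, and is made by nearly every cell, so it is not a class II gene.

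Promoters of these genes are known for an X box, bound by the RFX complex, followed by a Y box with the letters ATTGG, bound by NF-Y. RefSeq promoters of the GRCr8 build were held for 7 of the 9 genes, and stretches of them are shown because the genes below moved together from rat to rat. An X-like match here is G, any 2 bases, AC, any 3 bases and TG, a pattern chosen after these promoters had been read. It was searched on both strands alone, and on the gene's strand where followed within 35 bases by ATTGG or its reverse complement CCAAT. Capitals mark the X-like match and the Y core.
RT1-Bb (chr20:4604171-4604215, minus strand): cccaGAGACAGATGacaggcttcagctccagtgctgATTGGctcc
RT1-Da (chr20:4515329-4515374, plus strand): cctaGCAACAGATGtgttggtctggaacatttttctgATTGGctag
RT1-Db1 (chr20:4560234-4560278, minus strand): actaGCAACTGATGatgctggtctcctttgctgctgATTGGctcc
RT1-DMa (chr20:4712391-4712436, minus strand): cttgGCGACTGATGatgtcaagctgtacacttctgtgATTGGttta
Cd74 (chr18:56526986-56527025, plus strand): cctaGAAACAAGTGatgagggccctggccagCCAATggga

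In the 4 RT1 stretches the X-like match lay 82 to 112 bases before the gene's start, and 22 or 23 bases separated it from ATTGG. In Cd74 the match lay 216 bases before the start, and the Y core stood 17 bases on in the opposite orientation. The promoter of B2m held GAGACTGGTG with ATTGG 23 bases after it, and so the RT1-type order as well. Over all 33465 RefSeq promoter entries, each running from 250 bases before a start to 50 after it, 39.8% held an X-like match, 37.5% held ATTGG, and 1.49% held the pair within 35 bases. The pair with ATTGG at 22 or 23 bases stood in 24 entries (0.0717%), of which 5 belong to the genes above and 6 to other RT1 genes. The latter 6 are class I genes, so the arrangement is not particular to class II. This spacing was taken from the promoters of the genes above. That the 5 entries of those genes are among the 24 thus follows from the choice and is no support.

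The 2 remaining stretches show features that the pattern above does not cover. The promoter of RT1-Ba had an X-like match on the other strand only and no such pair, but it did hold the full Y box letters CTGATTGG (found in 3.5% of all promoters), which also stand in RT1-Bb, RT1-Da and RT1-Db1, and these are in capitals in its line. The promoter of B2m held GAAA, any 2 bases and GAAA, the core of the element read by interferon-regulated factors, a pattern that stood in 3.92% of promoters and is in capitals in its line.
RT1-Ba (chr20:4576981-4577022, plus strand): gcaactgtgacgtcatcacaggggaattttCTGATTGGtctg
B2m (chr3:129549176-129549203, plus strand): acatGAAACTGAAAatgggaaagtccct
The promoters of RT1-DMb and Ciita are not shown.

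Levels below are log2 intensities measured from the 75th percentile of their own array, so that 0 is the level of a spot at that percentile, and a probe's level is set only against itself in other rats. Leaving out control spots, 61.2% to 69.9% of the 58717 spots were well above background on low protein arrays, against 65.0% to 67.8% on control arrays. The SD of the negative control spots was 1.42 to 13.7 units on low protein arrays, against 0.90 to 3.07 on control arrays. Dim values and counts of arrays above background are limited by this difference. The arrays lay on 2 slides, each scanned on its own, with 4 rats of each diet on slide 1 and 2 of each on slide 2. Low protein rats 5 and 6 and control rats 2 and 4 were on slide 2. On slide 1 the low protein arrays were in row 2 and the control arrays in row 1, so row and diet cannot be told apart there, while slide 2 used row 1 for both diets. Nothing in the labels says that a rat number links the diets.

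Class II transcripts had lower mean levels in livers of low protein rats, but only RT1-DMb passed the test. The measured chains, Cd74 and the DM pair were at 0.527 to 0.656 times the control level. In every tested gene but RT1-DMb the rats of the 2 diets overlapped. The log2 differences, low protein minus control, lay between -0.48 and -0.92 for the 7 measured genes of the class II route and at -0.18 for B2m. Of the 8 genes that were bright enough to test, RT1-DMb fell and none rose at a limma adjusted p under 0.05 over all 21874 genes tested, where 6.53% of all genes were called and 3.05% of all genes were called as lower. At an unadjusted p under 0.05, all 8 were lower, against 11.3% of all genes, and a difference below 0 was found for 55.1% of genes. The genes were chosen with earlier results of these data known, and most of them moved together from rat to rat. These counts therefore describe the set and are not a test of it. The median difference of the 8 was -0.74, and that of all genes tested was -0.03. RT1-Ba was not well above background on any array.

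**Figure D1:**
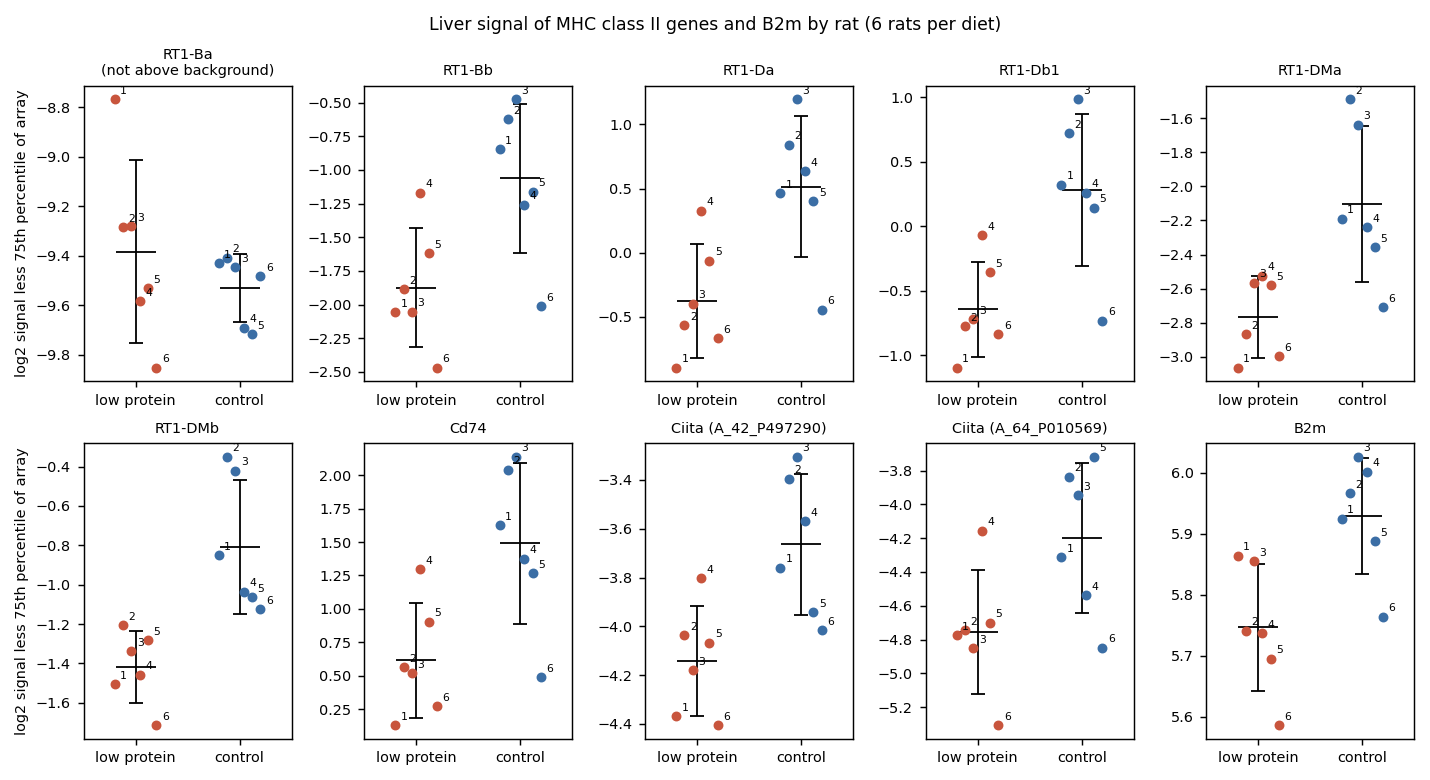
Signal of each probe in each rat as log2 less the array's 75th percentile (vertical axis, its own range in each panel), with low protein rats at left and control rats at right; points carry the rat number, and bars are the mean and SD of 6 rats. RT1-DMb is the panel of a tested gene in which the diets do not overlap, and control rat 6 is the lowest control rat in every panel but that of RT1-Ba.

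RT1-Da and RT1-Db1 are the alpha and beta chain of RT1-D, the rat counterpart of human HLA-DR. RT1-Da had -0.89, -0.48 and 0.33 as its lowest, median and highest value in low protein rats, against -0.44, 0.55 and 1.20 in control rats. RT1-Db1 had -1.10, -0.75 and -0.07 in low protein rats, against -0.73, 0.29 and 0.98 in control rats. For both genes all 6 low protein rats lay below the next-to-lowest control rat, and 3 of them below the lowest, so the diets overlapped through control rat 6 alone. RT1-Da differed by -0.89 ± 0.26 (SE, n = 6 rats per diet, limma adjusted p = 0.0634). RT1-Db1 differed by -0.92 ± 0.26 (SE, n = 6 rats per diet, limma adjusted p = 0.053), which is 0.527 times the control level with a 95% interval of 0.357 to 0.777. Neither passed the threshold. The beta chain genes of this cluster are close relatives, and whether their probes share targets was not tested.

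RT1-Bb is the beta chain of RT1-B, the counterpart of HLA-DQ, and RT1-Ba its alpha chain. RT1-Bb had -2.47, -1.97 and -1.17 in low protein rats, against -2.01, -1.004 and -0.47 in control rats. Low protein rats lay below the next-to-lowest control rat in 5 of 6 cases, the exception being low protein rat 4. The difference was -0.81 ± 0.26 (SE, n = 6 rats per diet, limma adjusted p = 0.0894). The single RT1-Ba probe gave 1.42 to 2.16 intensity units in low protein rats and 1.31 to 1.58 in control rats, not well above background on 12 of 12 arrays. Its partner RT1-Bb was well above background on all 12. Both diets are at background for RT1-Ba, and no fold is given.

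Cd74, the invariant chain, had the most spots, 10 per array. Its intensity was 1030, 1684, 1593, 3043, 2308 and 1596 units in low protein rats 1 to 6, against 2917, 4208, 4343, 3384, 2662 and 1380 units in control rats 1 to 6. Scaled, these are 0.13, 0.54 and 1.30 as the lowest, median and highest log2 value in low protein rats, against 0.49, 1.50 and 2.14 in control rats. All low protein rats lay under the control median, and 2 of them under control rat 6. The difference was -0.88 ± 0.27 (SE, n = 6 rats per diet, limma adjusted p = 0.0783), and the fold was 0.545 with a 95% interval of 0.361 to 0.823. The SD between the 10 spots of an array was 0.03 to 0.06 on the log2 scale, against an SD between rats of 0.43 in the low protein group and 0.60 in the control group.

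RT1-DMa and RT1-DMb form the DM pair that exchanges the invariant chain fragment for peptide. RT1-DMb had -1.71, -1.40 and -1.20 in low protein rats, against -1.13, -0.94 and -0.35 in control rats, and all 6 low protein rats lay below all 6 control rats. Among all genes tested, 4.98% had diets that did not overlap, and 1.98% had low protein rats wholly below control rats. RT1-DMb fell by 0.61 ± 0.15 on the log2 scale (SE, n = 6 rats per diet, limma adjusted p = 0.031), to 0.656 times the control level with a 95% interval of 0.524 to 0.821. Its difference was smaller than those of the chains, and so was its spread, with an SD of 0.18 in low protein and 0.34 in control rats.

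RT1-DMa had -3.06, -2.72 and -2.52 in low protein rats, against -2.71, -2.21 and -1.49 in control rats. All 6 low protein rats lay below the next-to-lowest control rat. The difference was -0.66 ± 0.20 (SE, n = 6 rats per diet, limma adjusted p = 0.0637). Its interval, 0.471 to 0.848 times the control level, held the value of RT1-DMb.

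Ciita, the transactivator, was dim but well above background on all arrays with both probes. Its brighter probe had -4.41, -4.12 and -3.80 in low protein rats, against -4.02, -3.66 and -3.31 in control rats. On this probe 5 of 6 low protein rats lay below the lowest control rat, and low protein rat 4 lay above 2 of the control rats. The difference was -0.48 ± 0.14 (SE, n = 6 rats per diet, limma adjusted p = 0.0663). The other probe had -5.31, -4.76 and -4.16 in low protein rats, against -4.85, -4.13 and -3.72 in control rats. In the fit of all 25704 probes, where 6.69% were called, it differed by -0.56 ± 0.22 (SE, n = 6 rats per diet, limma adjusted p = 0.15). The probes thus gave the same direction and nearly the same size, and neither passed in these fits. The size and call of the brighter probe depended on how background was treated. It was at -0.32 (limma adjusted p = 0.0364) after normexp background correction and at -0.38 (limma adjusted p = 0.0423) in the deposited value table.

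B2m, the class I light chain, had the smallest SD between rats of the 8 tested genes, 0.10 in low protein and 0.095 in control rats. It had 5.59, 5.74 and 5.86 in low protein rats, against 5.76, 5.95 and 6.03 in control rats. Low protein rats lay below the lowest control rat in 4 of 6 cases. The difference was -0.18 ± 0.07 (SE, n = 6 rats per diet, limma adjusted p = 0.157), or 0.881 times the control level with a 95% interval of 0.791 to 0.982. Without scaling between arrays it was -0.05. That setting moved the median of all genes to 0.11, so relative to this median B2m was again lower.

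**Figure D2:**
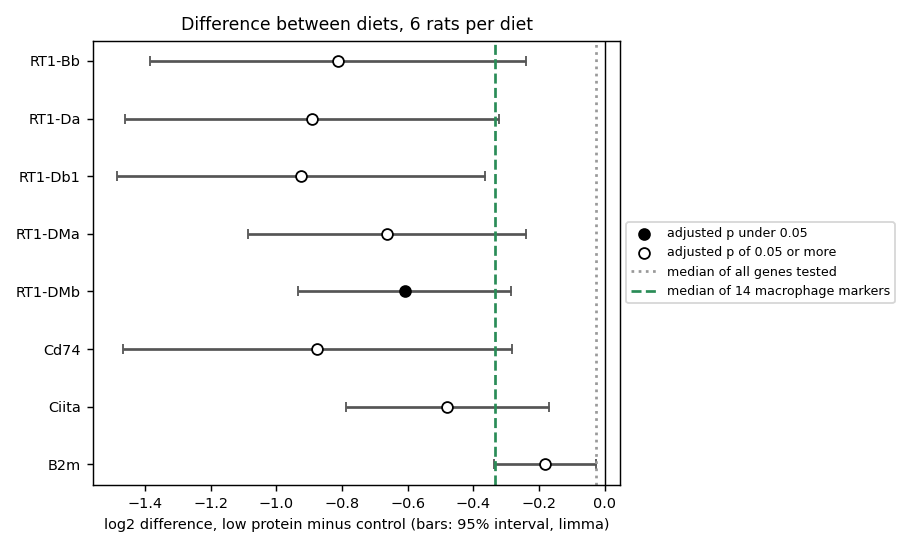
Log2 difference, low protein minus control (horizontal axis), of the 8 tested genes with limma's 95% interval over 6 rats per diet; the filled point passed at an adjusted p under 0.05, the dotted line is the median of all genes tested (-0.03) and the dashed line that of 14 macrophage markers (-0.33). All 8 points lie left of 0, from -0.18 for B2m to -0.92 for RT1-Db1.

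The number of genes that passed was highest with 1 of 2 rats left out, control rat 6 or low protein rat 4. Control rat 6 had the lowest value of its diet for each of the 8 tested genes, and low protein rat 4 the highest of its diet for 6 of them, the exceptions being RT1-DMb and B2m. Leaving out either rat therefore widens the difference of those genes by itself, and the higher counts are no further support. With any 1 rat left out, 856 to 1307 of all 21874 genes were called, against 1429 with all rats. Without control rat 6, 7 of the 8 genes fell, all but B2m, and RT1-Db1 was at -1.13 (limma adjusted p = 0.0098). Without low protein rat 4, 5 fell, namely RT1-Bb, RT1-Da, RT1-Db1, Cd74 and Ciita. RT1-DMb then missed the threshold (limma adjusted p = 0.0537), and it also did so without control rat 1 (0.051), control rat 2 (0.0535), control rat 3 (0.07), low protein rat 1 (0.06) or low protein rat 6 (0.0632). None of the 8 passed without control rat 1, 2 or 3 or low protein rat 1 or 6. Control rat 6 and low protein rat 4 were both on slide 1. On slide 2 alone, with 2 rats per diet, the log2 differences were -1.10 for RT1-Da, -1.09 for RT1-Db1, -1.10 for RT1-Bb and -1.12 for Cd74. On slide 1 alone, with 4 per diet, they were -0.79, -0.84, -0.67 and -0.75 in the same order. They were -0.80 on slide 2 and -0.51 on slide 1 for RT1-DMb, and -0.92 and -0.53 for RT1-DMa. For Ciita they were -0.76 on slide 2 and -0.34 on slide 1, and for B2m -0.34 and -0.10. None of the 8 genes passed on a slide alone.

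**Figure D3:**
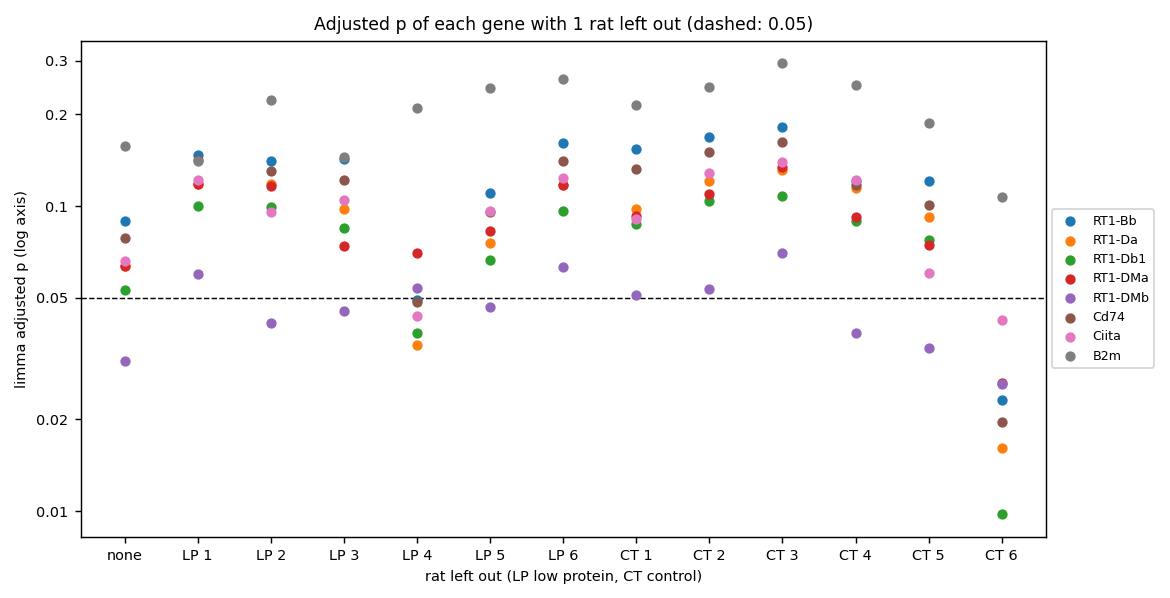
Limma adjusted p (vertical log axis) of each tested gene with all 12 rats (none) and with each rat left out in turn (horizontal axis); the dashed line is 0.05. With control rat 6 left out, 7 genes lie under the line, and with low protein rat 4 left out, 5 do.

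Within a diet the class II genes went up and down together from rat to rat. With the diet means removed, Pearson's r over the 12 rats was 0.98 between RT1-Da and RT1-Db1, 0.99 between Cd74 and RT1-Db1 and 0.96 between Cd74 and RT1-Bb. Between Cd74 and Ciita it was 0.90 (0.94 in low protein and 0.88 in control rats). RT1-DMa had 0.91 with Cd74, and RT1-DMb had 0.73. For RT1-DMb the value was 0.35 within low protein rats and 0.88 within control rats, with 6 rats each. B2m had an r of 0.42 with Cd74, with -0.15 within low protein and 0.87 within control rats. These are descriptions, since all values of a rat share its array and its scaling, and control rat 6 and low protein rat 4 lie farthest from the median of Cd74. Without both of them the r of Cd74 with RT1-Db1 was 0.97 and with Ciita 0.87.

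The genes most like Cd74 in this respect, among 11221 genes that carry an assigned gene symbol, included RT1-Db1, RT1-Da and RT1-Bb in the first 5, and RT1-DMa and Ciita in the first 11. Percentiles 5 and 95 of r over these genes were -0.53 and 0.56. Outside the 9 genes, the 8 closest were RT1-Db2 (r = 0.97, rho = 0.92), Gpnmb (0.97, 0.90), Pfkp (0.94, 0.86), Gpr65 (0.92, 0.85), Pla2g2d (0.92, 0.83), Lgmn (0.92, 0.88), Slpi (0.90, 0.92) and Ppm1n (0.90, 0.78). RT1-Db2 is a second beta chain gene of the same cluster, and its difference between diets was -0.94 ± 0.27 (SE, n = 6 rats per diet, limma adjusted p = 0.0604). Gpnmb, a glycoprotein of macrophages, was at -0.44 ± 0.13 (SE, adjusted p = 0.0569). Pla2g2d, a secreted phospholipase A known from dendritic cells, fell by 0.88 ± 0.21 (SE, limma adjusted p = 0.0273). Lgmn, the endosomal protease legumain, was at -0.24 ± 0.10 (adjusted p = 0.187), while Ppm1n, a protein phosphatase, was at 0.13 ± 0.11 (adjusted p = 0.556). Gpr65 was well above background on 2 low protein and 5 control arrays, so its r rests partly on dim values.

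Of the factors that work with Ciita at these promoters or act on its gene, no tested one passed. Of 18 cofactors and regulators of class II, 16 were tested, with 1 higher and 2 lower at an unadjusted p under 0.05 and a median of -0.15. The median over all genes tested was -0.03, and 6.53% of them were called. At the unadjusted threshold, 10.3% of all genes were higher and 11.3% lower. Nfya, a subunit of NF-Y, was at 0.70 ± 0.21 (SE, n = 6 rats per diet, limma adjusted p = 0.0691). The 3 subunits of the RFX complex, named here after their values had been seen, were at -0.0048 for Rfx5, -0.012 for Rfxap and -0.12 for Rfxank. Ifng, the interferon that induces Ciita, was too dim to test.

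Genes that supply peptide to class II or sit beside it on the cell surface were mixed. Of 22, 19 were tested, 1 fell and none rose, with 7 lower and 1 higher at an unadjusted p under 0.05 and a median of -0.12. Among the 7 is Cd86, named here because it was kept by the filter through the control arrays alone. It was well above background on 3 low protein and 6 control arrays, which limits this count. Over all genes 6.53% were called, and 11.3% were lower at the unadjusted threshold. Cd82, a tetraspanin of class II compartments, fell by 0.43 ± 0.09 (SE, n = 6 rats per diet, limma adjusted p = 0.0193). The call of Cd82 was lost without scaling and without the filter on dim probes, where no gene of the list passed. The invariant chain protease Ctss was at -0.38 ± 0.16 (adjusted p = 0.198) and the thiol reductase Ifi30 at -0.25 ± 0.07 (adjusted p = 0.0628), both named after their values had been seen. RT1-DOb, a chain of the DM inhibitor DO, was at -0.11 ± 0.20 (adjusted p = 0.807) and was also named so.

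In the class I route, to which B2m belongs, 29 of 34 genes were tested, 2 fell and none rose, with a median of -0.19. At an unadjusted p under 0.05, 8 were lower and 1 higher, where 11.3% of all genes were lower and 10.3% higher. Tap1, a subunit of the peptide pump of class I, fell by 0.59 ± 0.15 (SE, n = 6 rats per diet, limma adjusted p = 0.0347). Cd1d1, a class I-like molecule that presents lipids, fell by 0.45 ± 0.12 (limma adjusted p = 0.037). These 2 of 29 are a share near the 6.53% of all genes called. No gene of this list passed without scaling, without the filter on dim probes, or when control rat 3, 4 or 5 or low protein rat 2 or 5 was left out. RT1 class I heavy chains are close copies of one another, and their probes cannot be taken as separate genes.

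Markers of macrophages, which carry class II in liver, had lower mean levels in low protein rats as well, but no tested one passed. All 14 tested macrophage and Kupffer cell markers of 15 lay below 0, from -0.04 to -0.72 with a median of -0.33. Over all genes tested, 55.1% lay below 0. At an adjusted p under 0.05 none was called, against 6.53% of all genes, and 8 had an unadjusted p under 0.05, where 11.3% of all genes were lower. Adgre1, the adhesion receptor by which mouse macrophages are often recognised, was at -0.49 ± 0.17 (SE, n = 6 rats per diet, limma adjusted p = 0.111) and the complement component C1qa at -0.39 ± 0.14 (adjusted p = 0.118). Without control rat 6, 6 of the 14 passed as lower. The mean log2 level of this list was -0.74 to -0.41 in low protein rats, against -0.76 to 0.11 in control rats. Rat 6 was again the lowest control rat, so leaving it out widens the difference of this list by itself. Of 8 general leucocyte markers 1 was called, against 6.53% of all genes. This was Ptprc, the CD45 antigen, which fell by 0.43 ± 0.11 (SE, n = 6 rats per diet, limma adjusted p = 0.0292). The mean level of that list was -2.18 to -1.85 in low protein rats, against -2.29 to -1.55 in control rats, where rat 6 was lowest too. No leucocyte marker passed when any 1 of control rats 1 to 5 or of low protein rats 1, 2, 5 and 6 was left out, and 4 passed without control rat 6. None passed without scaling or without the filter on dim probes either.

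**Figure D4:**
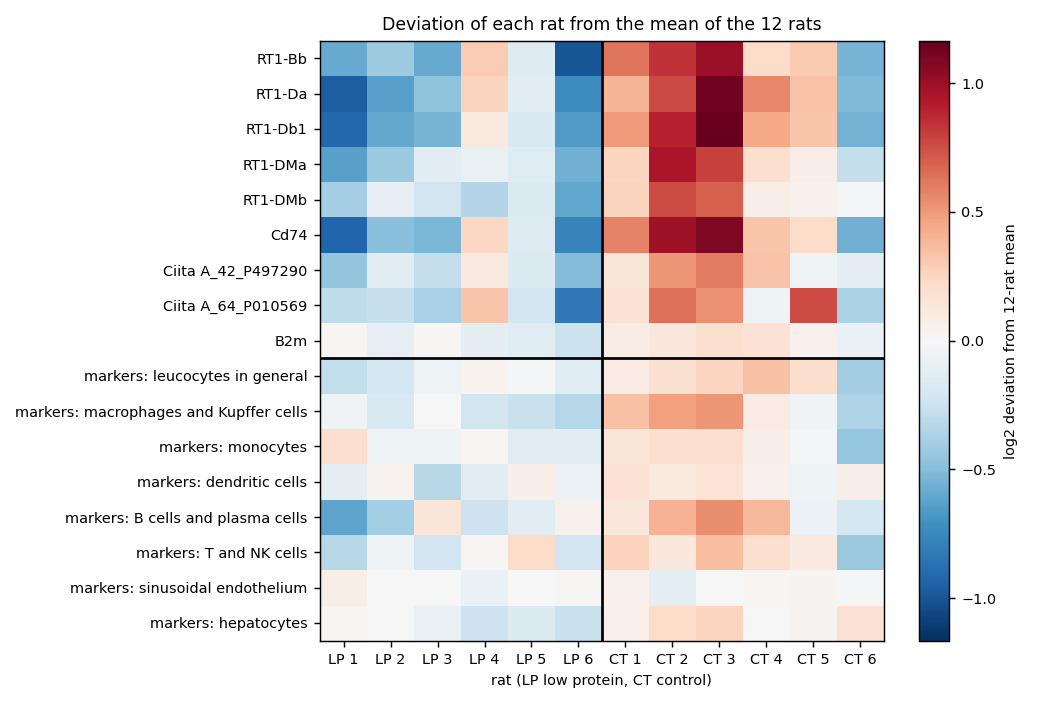
Deviation of each rat (columns, low protein left, control right) from the 12-rat mean on the log2 scale (colour), for the probes of the tested genes (above the line) and for the mean of each marker list (below it). Control rats 2 and 3 are high for the class II genes and for the macrophage list, and control rat 6 is low for both except for RT1-DMb, where it lies near the mean of the 12 rats, while the list of sinusoidal endothelium stays between -0.63 and -0.45 in all rats before the mean is taken off.

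For other cell types that carry class II, fewer markers were tested than for macrophages. Some had no named probe: 7 of 10 dendritic cell markers had one, and 7 of 10 B and plasma cell markers. Over all genes, 6.53% were called at the adjusted threshold. At an unadjusted p under 0.05, 11.3% of all genes were lower and 10.3% higher. Of 10 dendritic cell markers 5 were tested and none passed, 2 were lower at an unadjusted p under 0.05 (Itgae at -0.34 and Fscn1 at -0.24), and the mean level was -2.96 to -2.56 in low protein rats, against -2.70 to -2.48 in control rats. Xcr1, which defines a class of dendritic cells, was not well above background on any array. Of 10 B and plasma cell markers 3 were tested and none passed, with Pax5 at -0.03. Blk was well above background on 0 of the low protein and 5 of the control arrays, with measured means of -8.06 in low protein and -6.93 in control rats. It was kept by the filter through the control arrays alone, so its difference is not given. Cr2 was well above background on none of the 12 arrays. The mean level of the B cell list, in which Blk is 1 of the 3 genes, was -5.58 to -4.83 in low protein rats, against -5.17 to -4.43 in control rats. Of 8 monocyte markers 7 were tested and none passed, with 2 lower and 1 higher at an unadjusted p under 0.05. Fcgr3a was at -0.51 (limma adjusted p = 0.0538) and Lyz2 at -0.48 (limma adjusted p = 0.0626). In the other direction, S100a8 was at 0.34, S100a9 at 0.35 and Cd14 at 0.55. The list was thus mixed, with 4 below 0, 3 above 0 and a median of -0.13, where 55.1% of all genes lay below 0. Monocyte levels were -1.60 to -1.28 in low protein rats, against -1.93 to -1.28 in control rats.

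Of 14 T and NK cell markers 11 were tested and none passed, and Cd5 and Ncr1 were at background on all arrays. At an unadjusted p under 0.05, 2 of the 11 were lower (Gzma at -0.38, Prf1 at -0.37), where 11.3% of all genes were lower. The mean level of this list was -4.27 to -3.73 in low protein rats, against -4.38 to -3.60 in control rats. Sinusoidal endothelium gave a median of 0.04 over 6 of 8 markers (Cdh5 at -0.21 and Pecam1 at -0.11, with the other 4 above 0), with levels of -0.60 to -0.45 in low protein rats and -0.63 to -0.47 in control rats. Stellate cell markers had a median of -0.20 over 9 (Pdgfrb at -0.62, Lrat at 0.29) and bile duct markers one of -0.25 over 6 of 7 (Epcam at -0.46, and Cftr, well above background on 3 low protein and 6 control arrays and kept through the control arrays alone), and none passed. Hepatocyte markers, which check the tissue, stood at 5.86 to 6.13 in low protein rats, against 6.12 to 6.36 in control rats. Of these 10, Apoa1 (-0.84 ± 0.14, limma adjusted p = 0.00387) and Cps1 (-0.68 ± 0.14, limma adjusted p = 0.0135) fell, where 6.53% of all genes were called. In all, 9 of the 10 lay below 0, where 55.1% of all genes did, with a median of -0.15. At an unadjusted p under 0.05, 4 were lower, where 11.3% of all genes were. What the lower hepatocyte values mean for the other lists was not tested.

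To set Cd74 beside the macrophage markers rat by rat, the mean of that list was subtracted from it, which gives a quantity to compare between rats and not a ratio of transcripts. It was 0.57 to 1.91 in low protein rats, with a median of 1.08, against 1.25 to 2.03 with a median of 1.70 in control rats. The means differed by -0.53 with no test made, and the diets overlapped. With diet means removed, the r of Cd74 with the macrophage list over 12 rats was 0.69, with -0.27 within low protein and 0.99 within control rats. With the T and NK cell list it was 0.84 (0.78 within low protein and 0.86 within control rats), and with the hepatocyte list -0.03. The part of these cell markers in the difference of the class II genes was not tested.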

How the data were processed

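Liver RNA of 12 rats was hybridised to Agilent single-colour arrays. Image processing by the authors used Agilent Feature Extraction 12.0.3.1, per the file headers. The deposited intensity columns (processed, median, background) are linear and had no scaling from array to array. The deposited value table equals the median intensity at 100% of spots, and 0 of its columns lack a sample. Its scale is linear, it is not centred, and it holds no ratio.

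Probes were named through unversioned RefSeq accessions in the GRCr8 gene table (46.5% of 45598 probes, 16667 genes). The headers name another build, so the table's gene coordinates are not used. Values are log2 of the processed intensity less the array's 75th percentile. Spots marked as outliers were left out, spots of a probe were averaged, and no spot was saturated. A probe was kept where at least 5 rats of a diet, out of 6, had it well above background, and the brightest per gene was tested with limma 3.58.1 in R 4.3.3 (lmFit, eBayes, two-sided, Benjamini-Hochberg over all genes). All adjusted p-values come from it. Subtraction of background makes dim values uncertain. Precision is limited by how many arrays there are (median SE 0.13).

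The members and lists were chosen with earlier results of these data known. The genes named were all 9 members, per list up to 4 changed genes (or 2 with the smallest p where none changed), and the 8 genes most like Cd74. A gene that this rule names is not reported here. The fit was tested on simulated data with 200 of 21874 genes changed. It recovered 50% of those changed 1.5-fold, 71.2% at 2-fold and 96.8% at 4-fold, with 9.49% false calls. Tables used pandas 2.3.3 with numpy 2.4.6, and figures used matplotlib 3.10.9, in Python 3.11.15. Alternatives covered background correction, scaling, the deposited value table, filters, spots marked as outliers, how probes were joined per gene, limma's spread estimate, slide, rat number and each array left out. Slide and scan coincide, so scan was not run apart. The files used hold no mean signal, so normexp used the median signal.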

Additional observations from a re-analysis of the deposited data

How the results depend on the processing

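In all 25 alternatives the 8 tested genes lay below 0 (200 of 200 values). These values are not independent, since every alternative draws on the same 12 arrays, several leave the differences unchanged, and most of the genes moved together. The number that passed, 1 in the report, was 2 after quantile normalization, 0 without scaling, 5 after normexp background correction, 4 in the deposited value table, 0 without the filter on dim probes, 2 with the filter on all 12 arrays, 3 with a trended robust spread, 0 on slide 1 alone and 0 on slide 2 alone. Leaving out 1 rat gave 0 to 7. The count over all genes, 1429, was 891 without scaling, 618 without the filter, 164 on slide 1 and 12 on slide 2, and 856 to 1307 with 1 rat left out, lowest without control rat 3. Without scaling 679 genes were higher and 212 lower, against 761 and 668. RT1-DMb was at -0.48 (limma adjusted p = 0.115) without scaling and at an adjusted p of 0.0861 without the filter. With the replicate block, 2 of the 8 genes passed, the second being Ciita (limma adjusted p = 0.0477), and 1411 genes in all. Same-numbered rats deviated together with r of 0.03 to 0.26, and 2 of 6 correlated best with their own number, so the numbers were not taken as pairs. The causes of these changes were not tested. Dim signal limits Ciita and the B cell markers, and RT1-Ba could not be measured.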
